A study of Homo sapiens with 6 samples.

Results

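The immediate early factors examined here are ATF3, FOS, FOSL1, JUN, JUNB, JUND, EGR1, IER2, IER3 and MYC. They were taken by gene symbol, and all 10 were among the 11658 protein-coding genes of the gene table, with 23 of the 30432 protein-coding transcripts of the transcript table. The labels name the cells as MKN45, a long-established line from a human stomach cancer. The 3 target libraries came from MKN45 cells transfected with an shRNA, a short hairpin that silences the matching RNA, against tcons_00001221, and the 3 control libraries from MKN45 cells given a control shRNA. No further genotype, treatment or time is given in the labels, which also leave unsaid whether replicates were separate cultures. The p-values therefore reflect spread among 6 libraries that may be only technical. The single comparison asks what differs between target and control libraries. The targeted transcript was not analysed here, because 0 rows carried its identifier, so the size of the knockdown is not known.

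Immediate early genes are transcribed within minutes of a growth factor, cytokine or stress signal, without new protein synthesis, and their mRNAs are short-lived. FOS and JUN proteins pair through leucine zippers to form the transcription factor AP-1, while EGR1 is a zinc finger factor switched on by ERK signalling through serum response factor. ATF3 is a stress-induced zipper protein of the same wider family that often acts as a repressor, and MYC drives growth and ribosome production in many gastric and other cancers. IER2 and IER3 are small immediate early proteins, of which IER3 acts in survival signalling.

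Levels are given as FPKM, a fragment count divided by transcript length and by library total, so they can be set against each other between genes. Gene FPKM summed to between 186226 and 192101 per library, and the number of reads behind the values is unknown. Of 15 markers fixed for gastric and other epithelial cells, 7 were in the table. MET had a mean of 82.8 FPKM in control libraries, KRT18 60.9, MUC1 46.9, KRT8 35.1, CLDN4 10.5, EPCAM 7.26 and TFF1 0.883. CDH1, KRT19, CEACAM5, CEACAM6, TFF3, CLDN18, CDX1 and CDX2 were not among the genes analysed here. Of 12 mesenchymal markers 7 were in the table, with COL5A1 at 260.4 FPKM and VIM at 203 in control libraries. These control means stood above that of every epithelial marker analysed, and whether the cells match their label was not tested. COL1A2, COL3A1, THY1, PDGFRB and SPARC were not analysed here. The summed mesenchymal level was lower with the target shRNA, at 497 to 516 FPKM in control and 440.1 to 455 in target libraries. Most of that sum was COL5A1 and VIM, whose target means were 221.4 and 187.1 FPKM. Target means were also lower for FN1, CDH2 and ZEB1, but higher for COL1A1 (3.49 against 3.19 FPKM) and TWIST1 (3.36 against 3.27). Of 5 leukocyte markers only CD68 was in the table, at 12.5 to 15.2 FPKM in control and 9.59 to 12.4 in target libraries. The summed level of the 7 epithelial markers also lay lower with the target shRNA, but the groups barely separated. It was 237.8 to 252.9 FPKM in control and 226.0 to 237.3 in target libraries, and each of the 7 markers overlapped between groups. Among them CLDN4, a tight junction protein, ranged from 10.03 to 10.96 FPKM in control and from 0.0586 to 10.6 in target libraries. The part of these marker differences in the results below was not tested.

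ATF3 measured 3.95 ± 0.359 FPKM in control and 2.18 ± 0.370 in target libraries (SD, n = 3 per group). In the main test ATF3 had the smallest p-value of the 10 factors, and it did not pass the threshold over all genes. JUN and IER3 lay lower in every target library by small amounts, with means of 78.1 and 70.3 FPKM for JUN and 272 and 239.5 for IER3 in control and target. The mean of FOS was 3.49 FPKM in control and 5.23 in target libraries, with overlapping groups. None of the 10 factors passed. The test was limma-trend on log2(FPKM + 1), with Benjamini-Hochberg adjustment over the 10675 genes that had at least 1 FPKM in at least 3 libraries and a threshold of 0.05. All 10 factors passed that filter and were tested, and 0 were called, where 0.749% of all tested genes were. At an unadjusted p under 0.05 there were 3 of 10, namely ATF3, JUN and IER3, where 16.1% of all tested genes reached it. Estimates were below 0 for 8 of the 10 and for 38.8% of all tested genes, and the median log2 change was -0.13 over the 10 and 0.03 over all. In 4 of the 10 (ATF3, JUN, IER3 and MYC) every target library lay below every control library, and in 0 every target library lay above. Over all tested genes 7.18% had target libraries wholly below and 16.6% wholly above. In bulk RNA, fewer cells with a transcript and less of it per cell cannot be told apart.

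**Figure D1:**
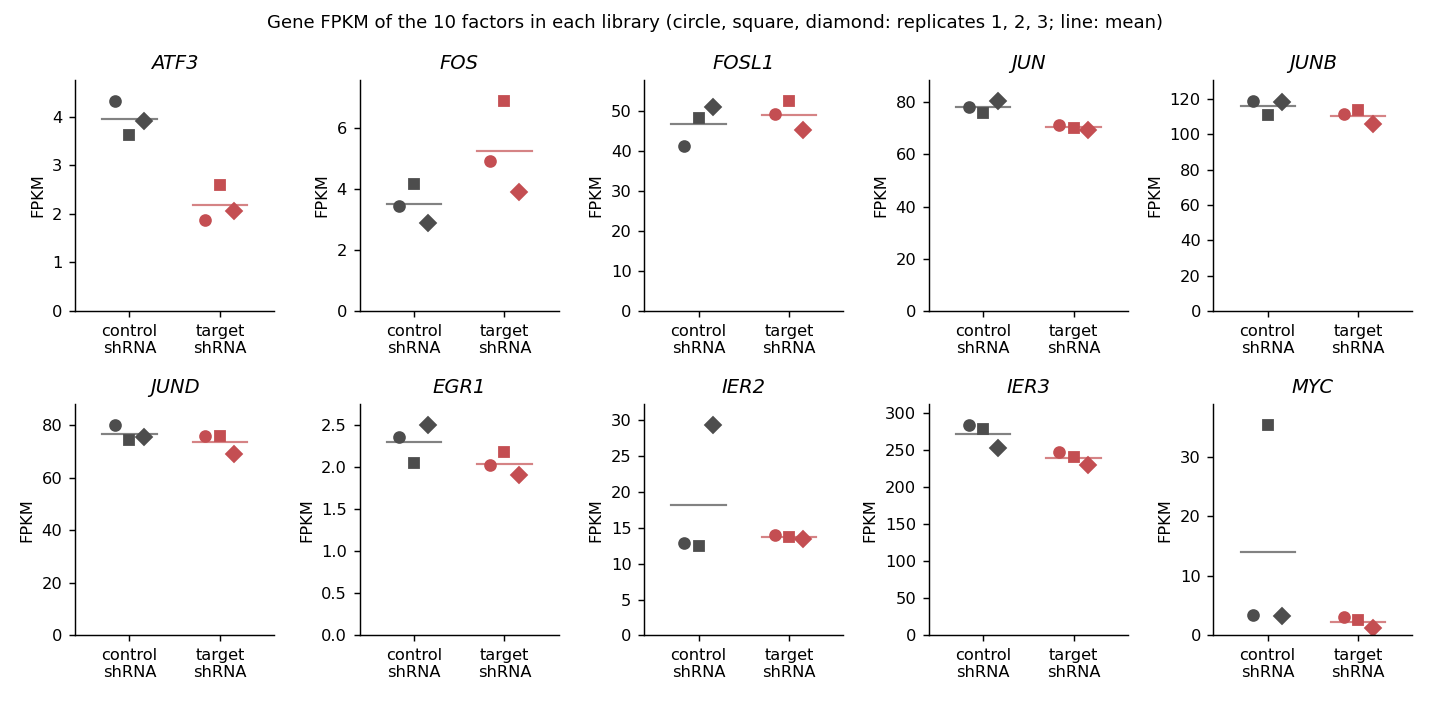
Gene FPKM (vertical axis, linear, from 0) of the 10 factors in the 3 control and 3 target libraries, each point 1 library and each line a group mean. ATF3 lies at 3.61 to 4.33 FPKM in control and 1.88 to 2.59 in target libraries, while the control means of MYC and IER2 each rest on 1 high library.

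The factors spanned a 118-fold range in mean level. IER3 was the highest, at a mean of 256 FPKM over the 6 libraries, above 99.4% of the genes in the table. JUNB followed at 113 FPKM, then JUND at 75.2 and JUN at 74.2, whose libraries overlapped each other in range, and FOSL1 at 48.0. IER2 averaged 15.98 FPKM, and the rest were low, with MYC at 8.16, FOS at 4.36, ATF3 at 3.07 and EGR1 at 2.17 FPKM. The mean of MYC is set by 1 library, and without that library its values ran from 1.31 to 3.44 FPKM. EGR1 stood above only 22.9% of the genes listed.

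ATF3 (chromosome 1, 212738676 to 212794119, plus strand, GRCh37) measured 4.33, 3.61 and 3.92 FPKM in control replicates 1, 2 and 3 and 1.88, 2.59 and 2.07 in target replicates 1, 2 and 3. The groups did not overlap, and the lowest control library was 1.02 FPKM above the highest target library. The means were 3.95 ± 0.359 and 2.18 ± 0.370 FPKM (SD, n = 3 per group), a ratio of 0.551. The log2 change was -0.64 (SE 0.10), with a 95% interval from -0.89 to -0.40 (adjusted p = 0.064), the 92nd smallest p among all tested genes. Its adjusted p missed the threshold of 0.05 in each of 15 alternative settings, where it ranged from 0.052 to 0.256, and its log2 change stayed between -1.02 and -0.57. When the FPKM of its listed transcripts was summed, ATF3 measured 8.14, 6.43 and 6.33 in control and 1.85, 4.33 and 2.90 in target libraries, again without overlap (log2 change -1.02, adjusted p = 0.256). The gene value was between 53.2% and 102% of that sum, so the tables do not state the same quantity at both levels.

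JUN, the main partner of FOS proteins (chromosome 1, 59246460 to 59249999, minus strand), measured 77.9, 75.9 and 80.5 FPKM in control and 71.3, 70.2 and 69.3 in target libraries. Every target library lay below every control library, and both groups were tight. The means were 78.1 ± 2.30 and 70.3 ± 0.997 FPKM (SD, n = 3 per group), a difference of -10.0%. The log2 change was -0.15 (SE 0.04), with an interval from -0.24 to -0.06 (adjusted p = 0.162). JUN has 1 listed transcript, so how reads are divided between transcripts does not enter its value.

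JUNB, a JUN relative that can restrain JUN (chromosome 19, 12902310 to 12904129, plus strand), measured 119, 111 and 118 FPKM in control and 111, 114 and 106 in target libraries. The groups overlapped (log2 change -0.08, interval from -0.19 to 0.04, adjusted p = 0.484). JUNB overlaps HOOK2 on the opposite strand, and strandedness is not given, so reads of the pair cannot be told apart. JUND, which is present in resting cells more than its relatives (chromosome 19, 18390570 to 18392432, minus strand), measured 80.1, 74.4 and 75.7 FPKM in control and 76.1, 76.0 and 69.1 in target libraries, and its groups overlapped too (log2 change -0.06, adjusted p = 0.639). The mRNAs of the 3 JUN family genes together summed to 277, 261 and 275 FPKM in control and 259, 259.8 and 244 in target libraries. JUNB held 42.5% to 43.7% of that sum in every library, JUND 27.6% to 29.4% and JUN 27.0% to 29.3%, so the make-up of the JUN family was nearly the same in all 6.

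RefSeq windows of the 250 bases before a gene's start (GRCh38.p14) matched 7 of the 10 factors by symbol, and FOSL1, IER3 and MYC had none. The windows of ATF3 and JUN are shown because these factors had the smallest p-values in the main test and hold the same 8 letters. These are TGACATCA, a variant of the sites that JUN and ATF dimers bind, in capitals. The table has 8 windows for the 7 factors, since ATF3 has a second one, which holds 0 matches of these letters and is not printed. The ATF3 window shown is the one before the start of the gene, at chr1:212565157-212565406 on the plus strand, and the JUN window at chr1:58784048-58784297 on the minus strand.
ATF3: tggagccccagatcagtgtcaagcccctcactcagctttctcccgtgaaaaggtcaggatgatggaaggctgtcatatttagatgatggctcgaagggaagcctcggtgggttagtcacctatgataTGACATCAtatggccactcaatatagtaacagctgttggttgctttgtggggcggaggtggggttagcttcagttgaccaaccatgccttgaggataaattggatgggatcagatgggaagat
JUN: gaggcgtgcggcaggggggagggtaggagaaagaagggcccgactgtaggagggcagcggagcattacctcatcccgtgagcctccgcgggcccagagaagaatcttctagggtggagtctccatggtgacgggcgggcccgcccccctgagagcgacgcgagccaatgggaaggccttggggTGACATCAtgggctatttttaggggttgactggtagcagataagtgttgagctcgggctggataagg
The first letter of the match lies 123 bases before the start in ATF3 and 67 in JUN. Both transcripts of ATF3 in the table begin 43294 and 43336 bases downstream of the gene's own start on GRCh37, so the printed window is not that of their start. TGACATCA, searched on both strands, was in 2 of the 7 factors and in 2.37% of all 35116 windows of the same length. TGACGTCA was in JUND alone of the 7 and in 1.65% of all windows, and TGANTCA in 0 of the 7 and in 6.57% of all. The CArG box, which serum response factor binds, had 2 matches in EGR1, in 0 of the other 6 factors and in 1.16% of all windows. These matches are letters in a window and do not show binding.

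FOS (chromosome 14, 75745477 to 75748933, plus strand) was the factor with the largest estimate above 0. It measured 3.43, 4.15 and 2.89 FPKM in control and 4.90, 6.88 and 3.90 in target libraries. Target replicate 3 lay below control replicate 2, so the groups overlapped, and the spread among target libraries was wide. The means were 3.49 ± 0.634 and 5.23 ± 1.52 FPKM (SD, n = 3 per group), a ratio of 1.498, and the log2 change was 0.45, SE 0.19, with an interval from -0.0022 to 0.91 (adjusted p = 0.313). Without target replicate 2 the log2 change was 0.27. The sum of its 3 listed transcripts was 5.50 to 6.80 FPKM in control and 7.36 to 13.1 in target libraries. That sum did not overlap between groups and was not called (log2 change 0.50, limma adjusted p = 0.447). FOSL1, the FOS relative common in invasive carcinoma cells (chromosome 11, 65659520 to 65668044, minus strand), measured 41.3, 48.4 and 51.2 FPKM in control and 49.3, 52.6 and 45.3 in target libraries. The groups overlapped (log2 change 0.07, interval from -0.16 to 0.29, adjusted p = 0.759), and without control replicate 1 the estimate was -0.02.

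At gene level, FOSL1 stood at 11.7 to 17.7 times the FPKM of FOS in control and 7.65 to 11.6 times in target libraries. The gene value was 42.4% to 66.6% of the summed listed transcripts for FOS and 74.1% to 80.8% for FOSL1. The ratio and the shares below therefore depend on the level at which they are read. FOSL2, a further FOS relative named here after its values were seen, was higher still, at 70.8 ± 1.43 and 70.6 ± 0.976 FPKM (SD, n = 3 per group). Of the summed FOS family, FOSL2 made up 53.7% to 60.4%, FOSL1 36.1% to 40.6%, FOS 2.28% to 5.31% and FOSB 0.301% to 0.561% over the 6 libraries. The FOS-family mRNA of these cells was thus mostly FOSL2 and FOSL1 in both groups. JUN-family FPKM exceeded FOS-family FPKM in each library, by 2.10 to 2.42 times in control and 2.01 to 2.05 times in target libraries.

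EGR1 (chromosome 5, 137801179 to 137805004, plus strand) measured 2.36, 2.05 and 2.50 FPKM in control and 2.03, 2.19 and 1.91 in target libraries. The groups overlapped (log2 change -0.12, interval from -0.30 to 0.06, adjusted p = 0.487). IER3 (chromosome 6, 30710976 to 30712331, minus strand) measured 284, 279 and 253 FPKM in control and 248, 241 and 230.3 in target libraries. The groups did not overlap in the gene table, where the log2 change was -0.18 (SE 0.05), with an interval from -0.32 to -0.05 (adjusted p = 0.215). In the sum of its 2 listed transcripts, control replicate 3 (254.5 FPKM) lay below target replicate 2 (259.1), so the groups overlapped there (log2 change -0.21, adjusted p = 0.438).

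IER2 (chromosome 19, 13261229 to 13265722, plus strand) measured 12.9, 12.4 and 29.3 FPKM in control and 14.0, 13.8 and 13.4 in target libraries. Control replicate 3 stood above the other 5 libraries, and the other control replicates lay below all target libraries. The log2 change was -0.28 (SE 0.31), with an interval from -1.02 to 0.46 (adjusted p = 0.693). Without control replicate 3 the estimate turned to 0.11 (adjusted p = 0.396).

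MYC (chromosome 8, 128747680 to 128753680, plus strand) measured 3.44, 35.3 and 3.28 FPKM in control and 3.15, 2.50 and 1.31 in target libraries. Control replicate 2 stood far above the other 5 libraries, and the lowest control library lay only just above the highest target library. The log2 change was -1.45 (SE 0.83), with an interval from -3.46 to 0.56 (adjusted p = 0.455). Without control replicate 2 it was -0.43 (adjusted p = 0.484). IER2 was not high in that control library, nor MYC in the one where IER2 was, so the 2 high values were not shared.

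**Figure D2:**
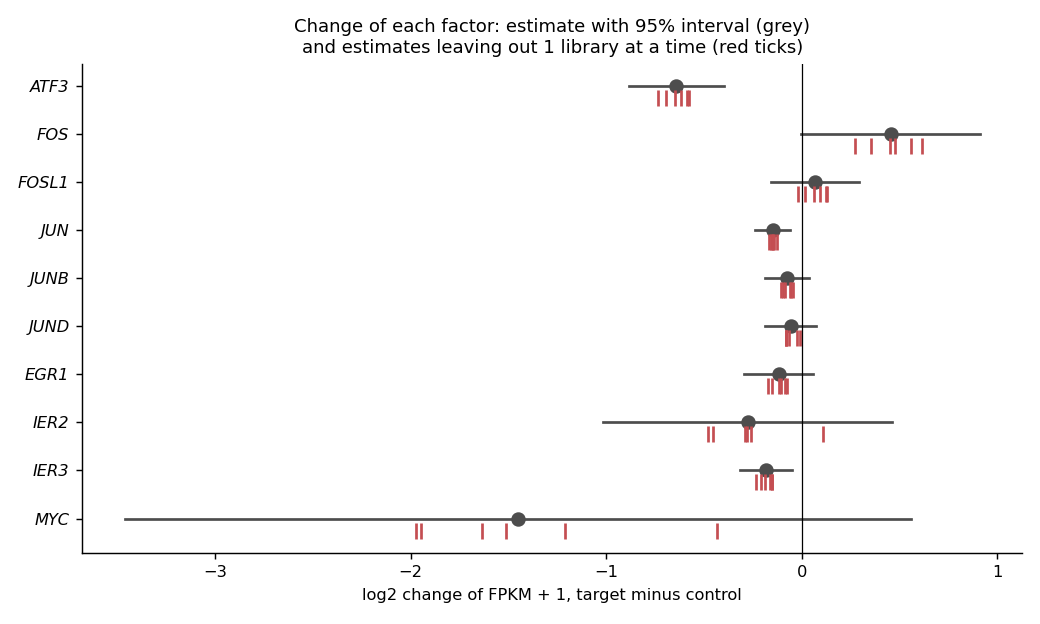
Log2 change of FPKM + 1, target minus control (horizontal axis), for each of the 10 factors, with grey bars as 95% intervals and red ticks as the estimates without 1 library each. ATF3 stays between -0.73 and -0.57, while MYC moves to -0.43 without control replicate 2 and IER2 to 0.11 without control replicate 3.

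For ATF3, FOS, FOSL1, IER2, IER3 and MYC, some transcripts varied more between libraries than the gene did. JUN, JUNB and EGR1 have 1 listed transcript each, equal to the gene value, and JUND-001 held 98.3% to 99.6% of JUND. Of the 23 transcripts listed for the 10 factors, 18 passed the same filter and were tested and 5 did not. Of those tested 0 were called, where 0.287% of all 20890 tested transcripts were. At an unadjusted p under 0.05 there were 3, where 7.4% of all tested transcripts reached it, and every target library lay below every control library in 2 of the 18, JUN-001 and MYC-005, where 6.07% of all tested transcripts did so. MYC-005, at 4.87, 4.60 and 7.58 FPKM in control and 3.56, 3.85 and 2.19 in target libraries, did not show the high value of control replicate 2 (log2 change -0.67, adjusted p = 0.653). That value lay in MYC-006, at 34.8 FPKM in control replicate 2 and 0 to 2.22 FPKM in the other 5 libraries, and in MYC-004, at 9.01 FPKM against 0.413 to 1.28.

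In ATF3, FOS, IER2, IER3 and MYC the main transcript changed between libraries within a group. ATF3-001 held 99.9% to 100% of the listed ATF3 FPKM in 5 libraries, but only 12.9% in control replicate 2, where ATF3-202, which begins 42 bases further upstream, held 87.1%. IER3-001 held 86.9% and 60.1% in control replicates 1 and 2 and 85.0% in target replicate 2, and was near 0 in the other 3 libraries, where IER3-002 held nearly all of it. These transcripts differ by 6 bases at their start. IER2-001 was listed at 0 in all control libraries and in target replicate 2, and at 15.7 and 13.6 FPKM in target replicates 1 and 3, where IER2-002 was low at 2.88 and 3.96. In control replicate 3 the high IER2 value lay in IER2-002, at 30.5 FPKM. FOS-001 held 84.5% and 85.4% of FOS in control replicates 1 and 2 but 37.2% in control replicate 3, and 42.1% to 74.4% in target libraries. FOSL1-001 was steadier, with 45.0% to 65.6% in control and 58.3% to 69.2% in target libraries, and FOSL1-005 measured 10.9 to 13.3 FPKM in control and 4.40 to 11.3 in target libraries (log2 change -0.80, adjusted p = 0.672).

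**Figure D3:**
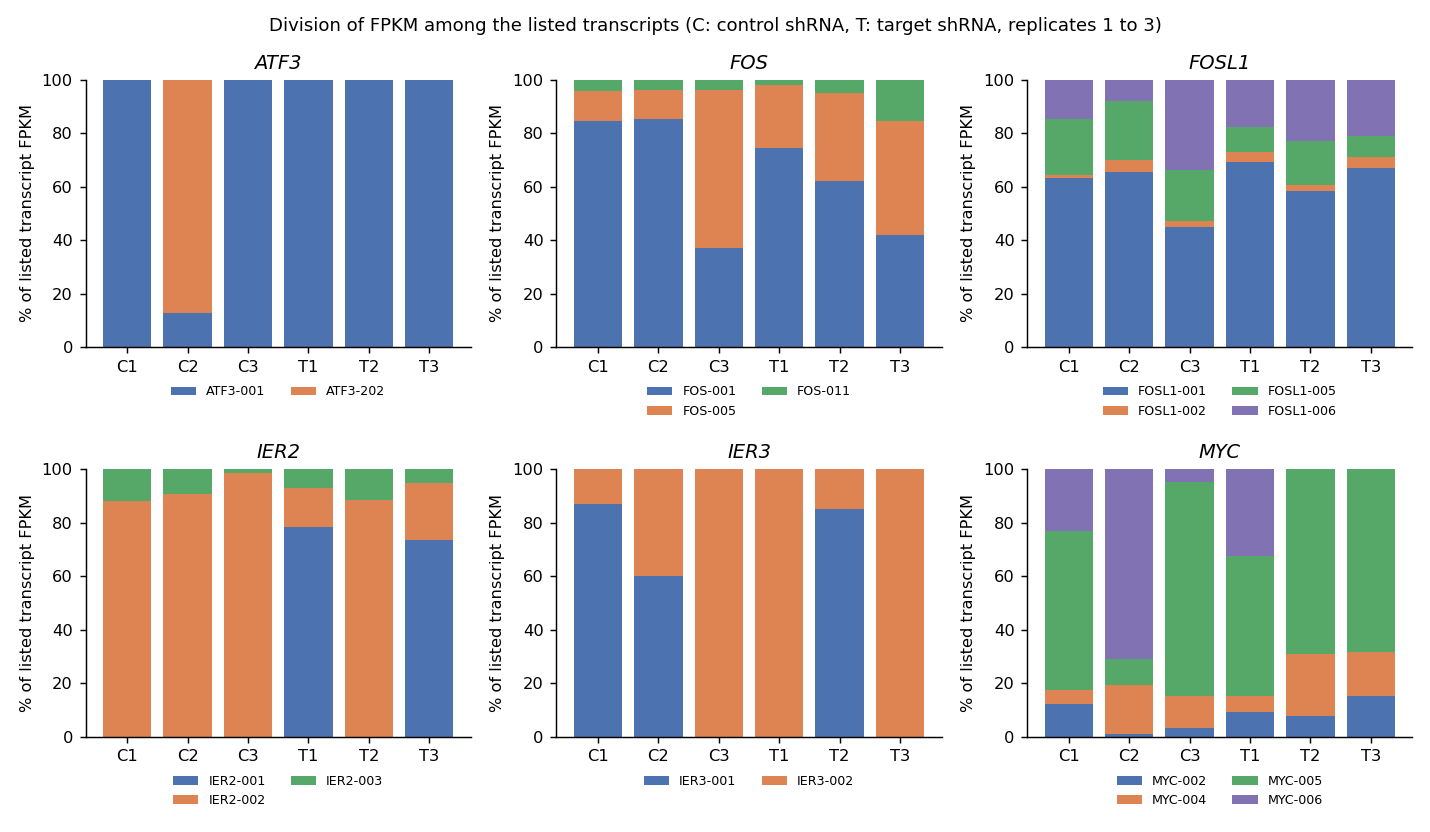
Share of each gene's listed transcript FPKM (vertical axis, percent) held by each transcript in control (C1 to C3) and target (T1 to T3) libraries, for the 6 factors with more than 1 transcript and a divided level. ATF3-202 holds 87.1% in C2 and near 0 elsewhere, the main IER3 transcript differs between libraries in both groups, and that of IER2 between target libraries.

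Genes of the same pathways were read from the same test, from lists drawn by role with earlier results of these data known. Over all tested genes 0.749% passed in either direction. Of 11 tested AP-1 and related zipper factors other than the 10, 0 passed as higher, 0 as lower and 11 missed it (median log2 change 0.08, where it was 0.03 over all tested genes). JDP2, a repressor that binds JUN, measured 1.98 ± 0.384 and 2.99 ± 0.494 FPKM (adjusted p = 0.211), and ATF1 22.3 ± 1.58 and 25.5 ± 0.465 (adjusted p = 0.233). Of 20 upstream kinases and factors 0 passed in either direction (median 0.02). SRF, serum response factor itself, measured 12.4 ± 0.947 and 13.2 ± 0.138 FPKM (adjusted p = 0.524), and RPS6KA3, a kinase activated by ERK, 17.6 ± 0.213 and 16.3 ± 0.889 (adjusted p = 0.351). RPS6KA1, the gene of smallest p in this list, went the other way with overlapping groups, at 10.6 ± 0.371 and 12.5 ± 1.65 FPKM (adjusted p = 0.340).

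Of 22 tested further immediate early genes 1 passed as higher, 0 as lower and 21 did not (median 0.03). SGK1, a kinase induced by serum and glucocorticoids, measured 3.78, 4.12 and 4.21 FPKM in control and 7.06, 7.05 and 7.47 in target libraries. It rose without overlap from a mean of 4.04 ± 0.226 to 7.19 ± 0.239 FPKM (SD, n = 3 per group). Its log2 change was 0.70, SE 0.06, at an adjusted p of 0.0084. Its call held in 14 of 16 other settings, and was lost with the replicate number as a block (adjusted p = 0.106) and in the sum of its transcripts (0.458). Of 10 tested genes known as AP-1 targets 1 passed as higher, 0 as lower and 9 missed the threshold (median 0.04). IL6, an inflammatory cytokine, rose from 1.38 ± 0.063 to 2.16 ± 0.069 FPKM (adjusted p = 0.037), a call that held in 6 of 15 alternatives, whose adjusted p spanned 0.026 to 0.384. CD44, a hyaluronan receptor, measured 40.2 ± 3.56 and 31.9 ± 0.115 FPKM without overlap and did not pass (adjusted p = 0.110).

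Of 15 tested partners, antagonists and regulators of MYC 0 passed (median -0.05). MXD4, which competes with MYC for its partner MAX, measured 9.08 ± 0.484 and 7.79 ± 0.247 FPKM (adjusted p = 0.196). Of 19 tested genes known as MYC targets 0 passed (median 0.04), with ODC1, the first enzyme of polyamine synthesis, at 45.4 ± 0.529 and 52.8 ± 1.66 FPKM (adjusted p = 0.086) and the cell cycle kinase CDK4 at 31.3 ± 1.21 and 37.2 ± 1.37 (adjusted p = 0.104). These were the only 2 of the 19 that lay higher in every target library, where 16.6% of all tested genes did. The MYC gene value lay lower, by an estimate that rested mostly on control replicate 2.

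Of 6 stress factors that pair with or act beside ATF3, 3 passed as higher, 0 passed as lower and 3 missed the threshold (median 0.39). Over all tested genes 0.749% passed in either direction. This list was drawn with earlier results of these data known, so its count and median are not independent support. CEBPG rose from 6.73 ± 0.087 to 10.7 ± 0.413 FPKM (adjusted p = 0.0084), DDIT3 from 5.98 ± 0.380 to 9.59 ± 0.610 (adjusted p = 0.021) and NUPR1 from 0.795 ± 0.087 to 1.63 ± 0.153 (adjusted p = 0.033). Their calls held in 15 of 16, 8 of 16 and 6 of 12 other settings, with adjusted p up to 0.114, 0.372 and 0.407. NUPR1 lay under 1 FPKM in every control library and met the filter only through the target libraries. Leaving out any target library therefore removed it from the test. Without the filter its adjusted p was 0.034 (limma). DDIT3 overlaps MARS on the opposite strand, so reads of these genes may be shared. ATF3 lay on the other side of 0 from them. ATF4, an activator of the ATF3 gene in stressed cells, had means of 111 ± 1.96 FPKM in control and 128 ± 1.48 in target libraries and was not called (adjusted p = 0.061), as ATF3 was not. The ratio of ATF4 to ATF3 was 25.1, 30.7 and 28.7 in control and 69.1, 49.0 and 61.9 in target libraries. Since ATF4 lay higher and ATF3 lower in every target library, the ratios had to separate between groups. They add nothing to the values of each gene.

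**Figure D4:**
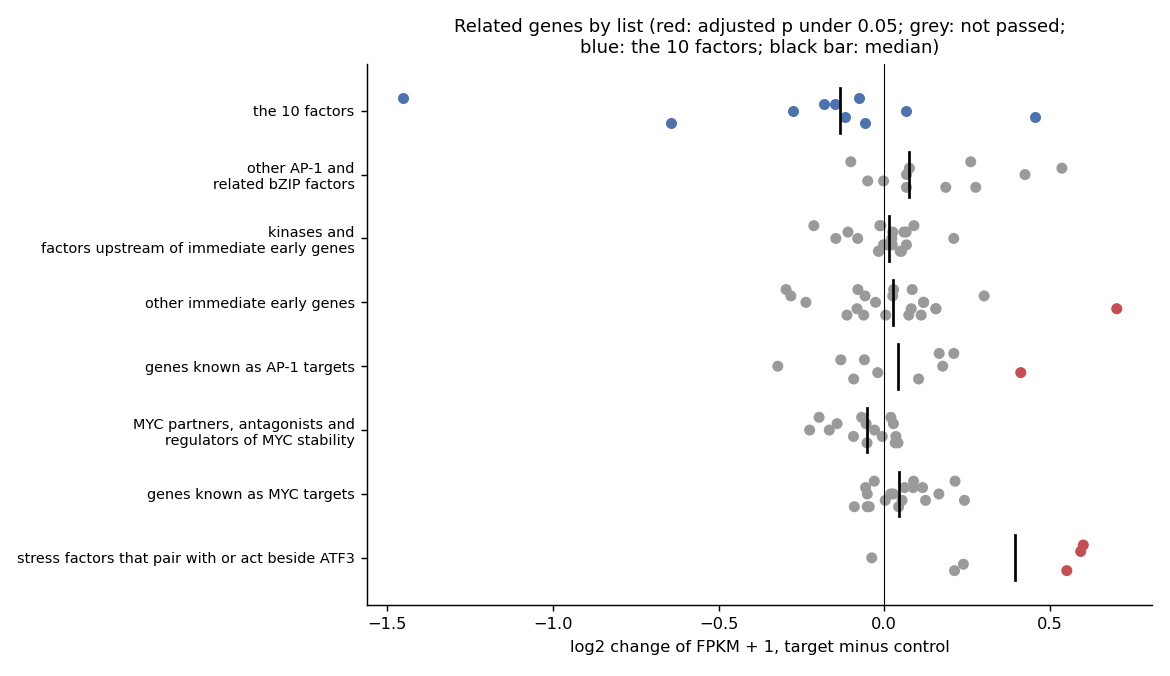
Log2 change of FPKM + 1, target minus control (horizontal axis), of each tested gene in 7 lists of related genes and of the 10 factors, with black bars as list medians. Red points passed an adjusted p of 0.05. The stress factors beside ATF3 have a median of 0.39 and the 10 factors one of -0.13. The lists were drawn with earlier results of these data known.

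The genes whose values followed ATF3 most closely over the 6 libraries, by Pearson's r of log2(FPKM + 1), were PINK1 (0.998), CXADR (0.986) and TMEM256-PLSCR3 (0.985). PINK1, a kinase of mitochondrial quality control, measured 19.5, 17.7 and 18.7 FPKM in control and 14.3, 16.03 and 14.8 in target libraries, with replicate 2 the lowest of the control and the highest of the target libraries, as in ATF3. For JUN, PSAP (0.988) and KDSR (0.984) were among the closest. With 6 libraries and 10675 genes, 30 genes exceeded an r of 0.95 with ATF3 and 63 with JUN, so these are descriptions of 6 values each.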

How the data were processed

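RNA of 6 MKN45 libraries was sequenced, 3 per group, and titles gave each library's group and replicate number. Trizol extraction and Illumina library protocols are stated, per the labels' protocols. Both deposited tables hold FPKM, at gene and at transcript level, per the file headers. Positions are on GRCh37, named with hg19 in the submitters' processing notes. For the aligner, quantification tool, annotation and strand setting the answer is the same: not given in the sources used here. Listed features were all protein-coding, and their higher group averaged at least 0.5 FPKM. FPKM times transcript length fell within 0.1 of whole multiples of a step for at most 40.0% of low values (20% by chance), so whole reads were not recovered and depth is unknown. How a tool divides reads between transcripts can move an FPKM value without a change in RNA.

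Values were analysed as log2(FPKM + 1), which understates changes of low genes, by limma-trend (limma 3.58.1, R 4.3.3), Benjamini-Hochberg adjusted over all tested features. Tables and figures used Python 3.11.15, pandas 2.3.3, scipy 1.17.1 and matplotlib 3.10.9. Fits were tested on simulated data. Members and lists were chosen with earlier results of these data known. From each list every gene past the threshold, and otherwise up to 4 of smallest p, could be named, together with the 3 genes of highest r for each of the 2 factors of smallest p. A gene that this rule selects is not reported here. Alternatives were other pseudocounts, filters, scalings and variance models, a replicate block, sums of transcripts, another threshold and leaving out each library.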

Additional observations from a re-analysis of the deposited data

How the results depend on the processing

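None of the 10 factors and none of their transcripts passed an adjusted p of 0.05 (limma) in any alternative run, including the replicate block. At an adjusted p of 0.1, 1 factor passed (ATF3), beside 194 genes in all. Estimates kept their sign in every alternative except FOSL1 without control replicate 1 and IER2 without control replicate 3. Leaving out 1 library at a time gave -0.021 to 0.131 for FOSL1 and -0.481 to 0.106 for IER2. A mean of at least 5 FPKM removed ATF3, FOS and EGR1 from the test and called 52 genes and 18 transcripts. Over all features 80 genes and 60 transcripts were called, and 5 genes of the related lists. Pseudocounts of 0.1 and 0.01 gave 39 and 15 transcripts. Sums of transcripts gave 27 genes in all and 1 of the related lists. Without 1 library, calls ranged from 22 to 44 genes, 13 to 44 transcripts and were 2 in the related lists. Quantile normalization and the mean filter each left 3 in the related lists. Deviations of same-numbered libraries correlated at -0.013, 0.019 and 0.066 across genes, so no deviation was broadly shared. That cannot tell whether same-numbered libraries were handled together, which the labels do not say. With the replicate block 10 genes, 0 genes of the related lists and 0 transcripts were called. In that limma fit FOS and IER3 had smaller unadjusted p (0.0035 each) than ATF3 (0.0045). None of them was called there (adjusted p = 0.238 for FOS and IER3 and 0.240 for ATF3). The unknown depth allows no counting error for low genes such as EGR1 and ATF3.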
